A study of Mus musculus with 6 samples.

Results

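The antiviral sensing and interferon response genes are described here as 46 named genes, all of which have a row in a deposited table of 55335 genes. They were chosen by symbol, from the nucleic acid sensors through the interferon receptors to the induced effectors and MHC class I. The cells were primary GABAergic (inhibitory) interneurons cultured from wild-type C57BL/6 brains at embryonic day 14.5; another label calls their source neural progenitor cells. The 3 AAV-shbrpf1 samples were infected with an adeno-associated virus (AAV) carrying a short hairpin against Brpf1, and the 3 AAV-scramble samples with one carrying a scrambled hairpin. Infection lasted 12 hours in both groups, so every library carries AAV, and no library without virus was analysed here. No source used here names the promoter of the hairpin, the time of harvest, or separate cultures behind the samples. The p-values thus reflect the spread among these 6 samples only, and part of it may be technical. The levels in both groups are the main description, and the hairpins and the replicate numbers are compared after it.

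Cells recognise viral nucleic acid with endosomal Toll-like receptors, with cytosolic RNA helicases that signal through MAVS, and with the DNA sensor cGAS, which signals through STING. Both routes activate the kinases TBK1 and IKKε, which phosphorylate IRF factors and so switch on interferon genes. Secreted interferon binds its receptor, JAK kinases phosphorylate STAT proteins, and a complex of STAT proteins with IRF9 binds the interferon-stimulated response element (ISRE) of the induced genes. In the brain, neurons are known for a low basal level of many of these genes, MHC class I included. AAV is a small virus with a single-stranded DNA genome.

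Steps between low values put the depth at 19.3, 13.1 and 16.6 M fragments in the AAV-shbrpf1 libraries 1, 2 and 3 and at 14.3, 21.2 and 20.9 M in the AAV-scramble libraries. The targeted gene Brpf1, a subunit of histone acetyltransferase complexes, measured 3.13, 4.58 and 3.78 FPKM in AAV-shbrpf1 libraries 1, 2 and 3, against 3.29, 5.45 and 4.84 FPKM in AAV-scramble libraries 1, 2 and 3. The groups overlapped, with a log2 difference of -0.18 ± 0.26 (SE), a 95% interval of -0.79 to 0.42 and a limma adjusted p of 1. Brpf1 was lower with AAV-shbrpf1 in 3 of 3 pairs of equal replicate number (11.3% of all genes tested were), and blocking on that number gave an interval of -0.44 to 0.07, again with a limma adjusted p of 1. The exact permutation p, two-sided, was 0.4; with 3 against 3 samples it cannot go below 0.1 and so could not pass 0.05. All 9 interneuron markers were present, with a summed level of 647 to 756 FPKM with AAV-shbrpf1 and 619 to 931 FPKM with AAV-scramble. The cultures also held 6 markers of radial glia and astrocytes, at 342 to 1001 FPKM and 367 to 962 FPKM in sum, so a level below cannot be assigned to interneurons alone. Of 12 microglia and macrophage markers 1 reached 1 FPKM in a library, C1qc, Cx3cr1, Itgam and Tyrobp were listed at 0 throughout, and the sum was 1.05 to 1.53 FPKM with AAV-shbrpf1 and 1.17 to 2.76 FPKM with AAV-scramble.

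Receptors and JAK-STAT genes were present throughout, sensors were low, and the effectors were mixed. A group mean of 1 FPKM or more was reached by 22 of the 46 genes, and those were tested; FPKM counts fragments per transcript length and library depth. All 7 receptor, JAK and STAT genes reached it, against 0 of 7 sensors and 5 of 15 induced effectors. In between stood 2 of 4 adaptors and kinases, 3 of 5 IRF factors and 5 of 8 MHC class I genes. The 24 genes below that level stayed at or under 1.42 FPKM in every library, a 0 appeared in at least 1 library for 9 of the 46 genes, and in all 6 for Oas1a.

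**Figure D1:**
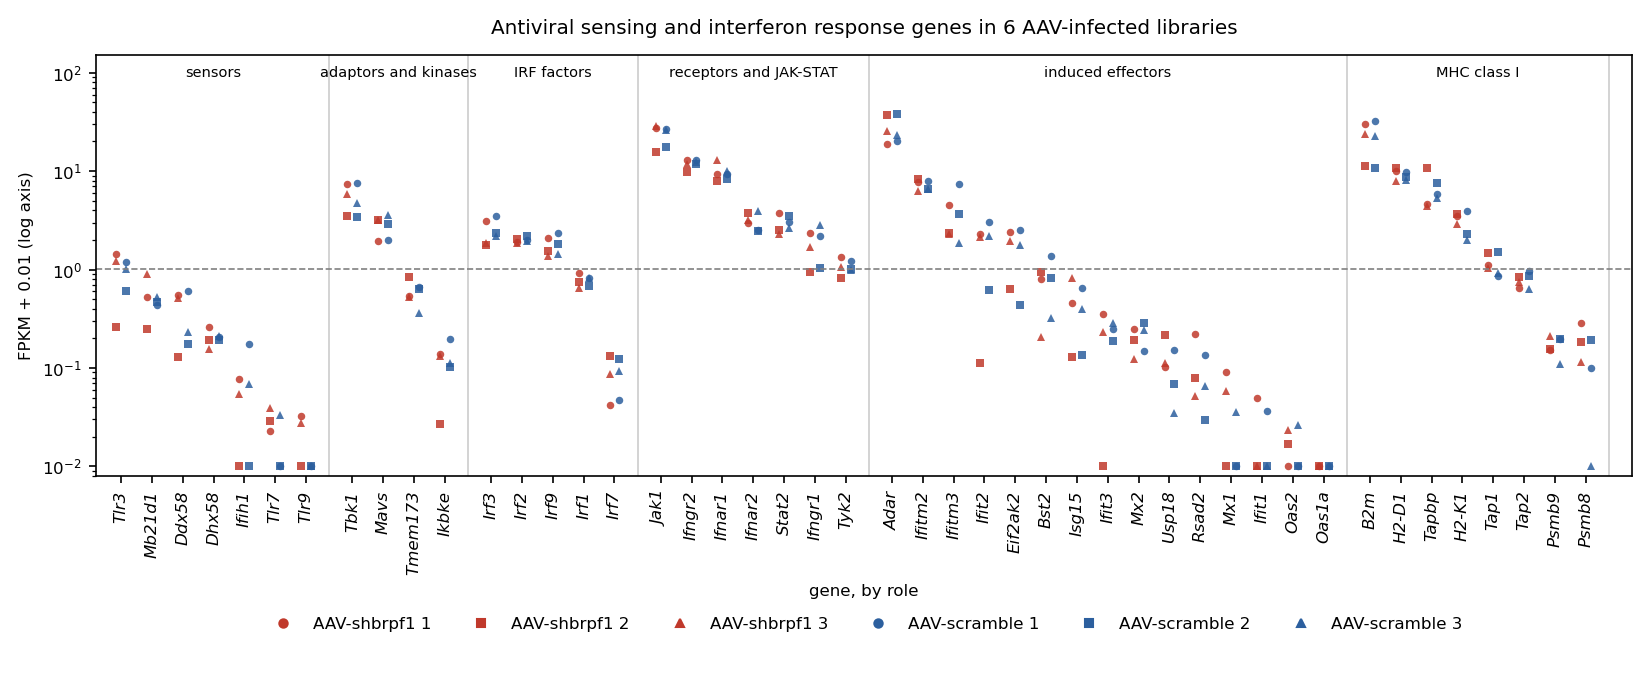
FPKM + 0.01 on a log axis for the 46 genes, by role and ordered by mean within a role, with 1 point per library (red AAV-shbrpf1, blue AAV-scramble; circle, square and triangle for replicate numbers 1, 2 and 3) and a dashed line at 1 FPKM. Receptors and JAK-STAT genes lie around or above the line, all 7 sensors have a mean under it, and Oas1a lies at the floor in each library.

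The receptors of both interferon types were expressed in each library. Ifngr2, the signalling chain of the receptor for interferon gamma, measured 13.1, 9.83 and 11.7 FPKM under AAV-shbrpf1, beside 13.1, 11.8 and 12.3 FPKM under AAV-scramble. Ifnar1, a chain of the receptor for type I interferons, measured 9.30, 8.01 and 12.98 FPKM across AAV-shbrpf1 samples, against 9.33, 8.38 and 10.1 FPKM across AAV-scramble samples. These were the most abundant receptor chains, and the groups overlapped for both. The partner chain Ifnar2 measured 2.98, 3.73 and 3.15 FPKM in AAV-shbrpf1 libraries 1, 2 and 3, against 2.50, 2.44 and 3.88 FPKM in AAV-scramble libraries 1, 2 and 3. Ifngr1, which binds interferon gamma, was lower, with 2.35, 0.942 and 1.69 FPKM under AAV-shbrpf1, beside 2.16, 1.02 and 2.84 FPKM under AAV-scramble. Both libraries numbered 2 were the lowest for Ifngr1, at about or under 1 FPKM, and its partner Ifngr2 stood above Ifngr1 in all 6 libraries. Ifnar2, Ifnar1 and Ifngr2 lie in a row on chromosome 16, with Ifnar2 at chr16:91372783-91405589, Ifnar1 at chr16:91485238-91507441 and Ifngr2 at chr16:91547072-91565623 (GRCm38, plus strand).

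Below the receptors, Jak1 was far more abundant than its partner Tyk2. Jak1, the kinase shared by both receptor types, measured 27.3, 15.5 and 28.6 FPKM across AAV-shbrpf1 samples, against 26.97, 17.5 and 26.3 FPKM across AAV-scramble samples. Tyk2, which pairs with it at the type I receptor, measured 1.32, 0.801 and 1.06 FPKM in AAV-shbrpf1 libraries 1, 2 and 3, against 1.22, 1.01 and 0.982 FPKM in AAV-scramble libraries 1, 2 and 3. Stat2, the STAT protein of the type I pathway, measured 3.72, 2.52 and 2.28 FPKM under AAV-shbrpf1, beside 3.03, 3.50 and 2.65 FPKM under AAV-scramble. Jak1 was lowest in both libraries numbered 2 whichever hairpin they carried, while Stat2 showed no such order. The 7 receptor, JAK and STAT genes summed to 60.03, 41.4 and 61.5 FPKM under AAV-shbrpf1, beside 58.3, 45.6 and 59.02 FPKM under AAV-scramble.

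Of the IRF factors, Irf2, Irf3 and Irf9 were present and the inducible Irf1 and Irf7 stayed under 1 FPKM. Irf3, the factor that TBK1 activates, measured 3.14, 1.77 and 1.84 FPKM across AAV-shbrpf1 samples, against 3.45, 2.35 and 2.18 FPKM across AAV-scramble samples. Irf2, which can repress induced genes, varied least of the 3, at 1.91, 2.04 and 1.83 FPKM in AAV-shbrpf1 libraries 1, 2 and 3, against 1.97, 2.19 and 1.92 FPKM in AAV-scramble libraries 1, 2 and 3. Irf9, the DNA-binding partner of the STAT proteins, measured 2.08, 1.52 and 1.35 FPKM under AAV-shbrpf1, beside 2.33, 1.81 and 1.44 FPKM under AAV-scramble. All 3 genes were lower in the AAV-shbrpf1 library of every pair, as 11.3% of all genes tested were, and none passed the test: for Irf3 the log2 difference was -0.18 ± 0.27 (SE) with a 95% interval of -0.81 to 0.45. Irf1, itself induced by interferon gamma, stood at 0.903, 0.741 and 0.645 FPKM for AAV-shbrpf1, beside 0.807, 0.669 and 0.802 FPKM for AAV-scramble. Irf7, the factor that amplifies the type I response and is induced by it, reached at most 0.121 FPKM, an estimated 1.72 to 7.73 fragments per library. Irf9 overlaps Rnf31 on the same strand and Irf3 overlaps Bcl2l12 on the opposite one. Rnf31 measured 2.81 to 6.02 FPKM over both groups, above Irf9 in every library. Irf7 overlaps Phrf1 on the opposite strand, a gene with 4.04 to 11.3 FPKM over both groups. No source used here says whether strand was used in counting, so reads of such neighbours cannot be told apart.

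The sensors were low in both groups. Tlr3, an endosomal receptor for double-stranded RNA and the most abundant of the 7, measured 1.42, 0.248 and 1.21 FPKM across AAV-shbrpf1 samples, against 1.18, 0.598 and 1.01 FPKM across AAV-scramble samples. Tlr9, the endosomal receptor for unmethylated CpG DNA, had 0.0227, 0 and 0.0173 FPKM in AAV-shbrpf1 libraries and was listed at 0 in all 3 AAV-scramble libraries, which is at most 1.52 estimated fragments in any library. Tlr7, a receptor for single-stranded RNA, was at or under 0.0295 FPKM. The endosomal DNA receptor was thus at or close to 0 in both groups of infected cells, while the RNA receptor Tlr3 was detected in every library.

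Mb21d1, which encodes cGAS, stood at 0.512, 0.240 and 0.898 FPKM for AAV-shbrpf1, beside 0.426, 0.454 and 0.511 FPKM for AAV-scramble. Its partner Tmem173, which encodes STING, had 0.525, 0.829 and 0.518 FPKM for AAV-shbrpf1, beside 0.648, 0.619 and 0.356 FPKM for AAV-scramble. Both were thus detected in each library and under 1 FPKM. Among the RNA helicases Ddx58, which encodes RIG-I, reached 0.589 FPKM, Dhx58, which encodes LGP2, 0.253 FPKM, and Ifih1, which encodes MDA5, 0.163 FPKM. Ifih1 was listed at 0 in both libraries numbered 2. Mavs, the mitochondrial adaptor of these helicases, was by contrast measured at 1.93, 3.16 and 3.17 FPKM in AAV-shbrpf1 libraries 1, 2 and 3, against 2.00, 2.87 and 3.57 FPKM in AAV-scramble libraries 1, 2 and 3. It was lowest in both libraries numbered 1. Tbk1, the kinase on which the routes meet, measured 7.31, 3.52 and 5.89 FPKM under AAV-shbrpf1, beside 7.48, 3.41 and 4.76 FPKM under AAV-scramble, and its relative Ikbke, which interferon and inflammatory signals induce, at most 0.187 FPKM.

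Of the 15 effectors 10 had a mean under 1 FPKM in both groups, and the other 5 are given after the promoters. Isg15, a ubiquitin-like protein that is joined to other proteins, stood at 0.451, 0.118 and 0.814 FPKM for AAV-shbrpf1, beside 0.634, 0.126 and 0.390 FPKM for AAV-scramble, an estimated 1.17 to 10.2 fragments per library. Ifit1, which binds viral RNA lacking a host cap, had 0.0390, 0 and 0 FPKM for AAV-shbrpf1, beside 0.0264, 0 and 0 FPKM for AAV-scramble. The groups overlapped for both, and the values rest on few fragments. Further members were low as well: Mx1, a dynamin-like GTPase, reached 0.0815 FPKM, its relative Mx2 0.274 FPKM and Rsad2, which encodes viperin, 0.213 FPKM. Oas2, an enzyme that makes 2'-5' oligoadenylate on double-stranded RNA, reached 0.0162 FPKM, and Usp18, which removes ISG15 from proteins, 0.205 FPKM. Ifit3 reached 0.342 FPKM, and Bst2, which encodes the virion tether tetherin, 1.35 FPKM. All 15 effectors together summed to 38.3, 50.3 and 39.6 FPKM under AAV-shbrpf1, beside 43.5, 50.6 and 36.8 FPKM under AAV-scramble, and Adar held the largest part of each sum. Ifit3, Oas1a, Ifitm2 and Ifitm3 have close relatives in the genome, so their values depend on how shared reads were assigned.

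Promoter windows were searched for the letters of the element that the STAT and IRF9 complex binds. The ISRE core, GAAA then NN (any 2 bases) then GAAA, was searched on both strands in windows of 300 bases, 250 before and 50 after the annotated start, from RefSeq on GRCm38.p6. Of the 46 genes 38 had a window there, and 14 of them held the core in at least 1 window, against 3.99% of all 27025 genes with windows. By role these were 9 of 11 effectors, 2 of 5 sensors, 1 of 5 IRF factors (Irf2), 1 of 7 receptor and JAK-STAT genes (Stat2), 1 of 7 MHC class I genes (B2m) and 0 of 3 adaptors and kinases. A match describes letters in a window and not a bound site. The effectors were listed as interferon-induced genes, so a share above that of all genes is no independent result. Shown are 3 promoters of effectors with a mean under 1 FPKM in both groups (Isg15, Ifit1 and Oas1a). Beside them are 3 of genes with an ISRE core whose group means reached 1 FPKM (B2m, Ifitm3 and Eif2ak2). Each is given 5′ to 3′ on the gene's strand with the core matches in capitals. They lie at chr4:156200769-156201068 (minus strand), chr19:34640639-34640938 (plus strand), chr5:120907476-120907775 (minus strand), chr2:122147437-122147736 (plus strand), chr7:141010695-141010994 (minus strand) and chr17:78882523-78882822 (minus strand), in that order.
Isg15: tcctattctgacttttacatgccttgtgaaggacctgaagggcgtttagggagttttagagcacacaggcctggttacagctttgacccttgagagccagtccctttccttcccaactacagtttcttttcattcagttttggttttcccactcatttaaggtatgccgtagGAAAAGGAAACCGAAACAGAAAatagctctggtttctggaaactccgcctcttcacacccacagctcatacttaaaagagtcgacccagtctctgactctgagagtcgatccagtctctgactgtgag
Ifit1: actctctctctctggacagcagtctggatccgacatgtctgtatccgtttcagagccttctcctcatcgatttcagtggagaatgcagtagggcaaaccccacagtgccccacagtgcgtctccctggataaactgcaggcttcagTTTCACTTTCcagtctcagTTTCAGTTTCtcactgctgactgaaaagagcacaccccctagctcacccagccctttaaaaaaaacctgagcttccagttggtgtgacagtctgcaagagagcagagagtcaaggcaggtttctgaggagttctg
Oas1a: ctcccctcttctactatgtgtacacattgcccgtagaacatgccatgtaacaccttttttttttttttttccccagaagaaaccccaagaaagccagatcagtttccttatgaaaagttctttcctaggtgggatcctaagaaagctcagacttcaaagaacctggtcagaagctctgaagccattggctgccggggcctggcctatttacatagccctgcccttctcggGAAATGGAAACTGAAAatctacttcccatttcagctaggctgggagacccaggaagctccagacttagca
B2m: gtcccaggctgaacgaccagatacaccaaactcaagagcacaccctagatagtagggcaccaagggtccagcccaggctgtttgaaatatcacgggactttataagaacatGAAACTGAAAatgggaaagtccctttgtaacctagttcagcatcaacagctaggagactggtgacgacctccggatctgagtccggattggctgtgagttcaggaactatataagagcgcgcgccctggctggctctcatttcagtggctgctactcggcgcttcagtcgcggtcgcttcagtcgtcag
Ifitm3: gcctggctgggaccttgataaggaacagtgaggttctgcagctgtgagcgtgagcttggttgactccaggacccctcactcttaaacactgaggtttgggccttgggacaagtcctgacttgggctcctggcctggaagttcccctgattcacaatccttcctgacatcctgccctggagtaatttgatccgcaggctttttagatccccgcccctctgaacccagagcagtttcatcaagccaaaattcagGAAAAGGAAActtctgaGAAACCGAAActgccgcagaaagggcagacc
Eif2ak2: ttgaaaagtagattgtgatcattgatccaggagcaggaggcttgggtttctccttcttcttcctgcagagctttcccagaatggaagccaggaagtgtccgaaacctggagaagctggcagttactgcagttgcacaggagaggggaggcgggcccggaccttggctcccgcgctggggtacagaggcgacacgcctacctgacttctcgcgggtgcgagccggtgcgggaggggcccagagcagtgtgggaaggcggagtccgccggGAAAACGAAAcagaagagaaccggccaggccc

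In Isg15 the core occurs 3 times, each match overlapping the next, with first bases at -78, -72 and -66 from the start. Ifit1 has 2 separate matches, at -104 and -85, and Oas1a 2 that overlap, at -20 and -14. These 3 genes averaged 0.422, 0.0109 and 0 FPKM over the 6 libraries. B2m has 1 match, at -139, and averaged 21.8 FPKM. The matches of Ifitm3 begin at 2 and 19 and the one of Eif2ak2 at 18, in genes that averaged 3.68 and 1.62 FPKM. A core in the window thus went with levels anywhere between 0 and 21.8 FPKM. The median level was 0.577 FPKM for the 14 genes with a core and 1.79 FPKM for the 24 without. Of 11 induced effectors with a window, 9 are among the 14, so these medians also differ in role. Only exact letters counted as a core, so a promoter with a near match falls among the 24. The part of the core in these levels was not tested. The shorter gamma-activated site TTCNNNGAA, which reads the same on both strands, was in windows of 11 of the 38 genes and of 9.55% of all genes; in Ifitm3 and Bst2 a match overlaps an ISRE core.

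A group mean of 1 FPKM was reached by 5 effectors. Adar, the RNA editing enzyme that turns adenosine into inosine in double-stranded RNA, was the most abundant, with 19.04, 37.4 and 25.4 FPKM across AAV-shbrpf1 samples, against 20.04, 37.96 and 23.1 FPKM across AAV-scramble samples. It has a constitutive and an interferon-induced isoform, which a value per gene cannot separate. Its highest levels were those of both libraries numbered 2. Chrnb2 overlaps Adar on the opposite strand, with 10.03 to 13.5 FPKM under AAV-shbrpf1 and 10.2 to 15.9 FPKM under AAV-scramble. The membrane proteins Ifitm2 and Ifitm3 block virus entry; Ifitm2 measured 7.76, 8.21 and 6.28 FPKM in AAV-shbrpf1 libraries 1, 2 and 3, against 7.87, 6.52 and 6.54 FPKM in AAV-scramble libraries 1, 2 and 3. Ifitm3 measured 4.56, 2.36 and 2.31 FPKM under AAV-shbrpf1, beside 7.33, 3.67 and 1.86 FPKM under AAV-scramble. Ifitm2 was even across libraries, and Ifitm3 was highest in the libraries numbered 1. Eif2ak2, which encodes the double-stranded RNA kinase PKR, measured 2.38, 0.630 and 1.96 FPKM across AAV-shbrpf1 samples, against 2.52, 0.422 and 1.78 FPKM across AAV-scramble samples. Ifit2, a relative of Ifit1, measured 2.30, 0.102 and 2.13 FPKM in AAV-shbrpf1 libraries 1, 2 and 3, against 3.04, 0.614 and 2.19 FPKM in AAV-scramble libraries 1, 2 and 3. For Eif2ak2 and Ifit2 both libraries numbered 2 were the lowest, with an estimated 5.12 Ifit2 fragments in AAV-shbrpf1 library 2.

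For MHC class I, the light chain and heavy chains were expressed while Psmb8 and Psmb9, members that encode induced proteasome subunits, were low. B2m, the β2-microglobulin chain common to all class I molecules, measured 30.1, 11.3 and 23.7 FPKM under AAV-shbrpf1, beside 32.3, 10.6 and 22.5 FPKM under AAV-scramble. It lies at chr2:122147686-122153083 on the plus strand (GRCm38). Of the heavy chains, H2-D1 measured 10.1, 10.7 and 7.97 FPKM across AAV-shbrpf1 samples, against 9.89, 8.76 and 8.07 FPKM across AAV-scramble samples. H2-K1 measured 3.49, 3.65 and 2.89 FPKM in AAV-shbrpf1 libraries 1, 2 and 3, against 3.97, 2.28 and 2.01 FPKM in AAV-scramble libraries 1, 2 and 3. The libraries numbered 2 were lowest for B2m and not for the heavy chains, whose values can share reads with other class I genes. Tapbp, which encodes tapasin, the bridge between class I and the peptide transporter, measured 4.62, 10.8 and 4.38 FPKM under AAV-shbrpf1, beside 5.83, 7.50 and 5.31 FPKM under AAV-scramble. Tapasin's gene was highest in both libraries numbered 2, and it overlaps Zbtb22 on the same strand. Zbtb22 measured 7.99 to 12.6 FPKM over both groups, above Tapbp in every library, so reads of the pair cannot be told apart here.

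The transporter subunit Tap1 measured 1.10, 1.47 and 1.04 FPKM across AAV-shbrpf1 samples, against 0.848, 1.49 and 0.920 FPKM across AAV-scramble samples. Its partner Tap2 stood at 0.632, 0.831 and 0.735 FPKM for AAV-shbrpf1, beside 0.958, 0.849 and 0.621 FPKM for AAV-scramble, so both subunits were near 1 FPKM in either group. The immunoproteasome subunits Psmb8 and Psmb9 reached at most 0.277 and 0.200 FPKM. Psmb5, the constitutive subunit in whose place Psmb8 is built in, measured 57.5, 112 and 77.8 FPKM in AAV-shbrpf1 libraries 1, 2 and 3, against 64.8, 97.1 and 82.7 FPKM in AAV-scramble libraries 1, 2 and 3. Psmb6, the counterpart of Psmb9, measured 48.3, 93.2 and 61.4 FPKM under AAV-shbrpf1, beside 46.96, 77.99 and 77.8 FPKM under AAV-scramble. Psmb5 and Psmb6 thus stood far above Psmb8 and Psmb9 in every library. Psmb10, the other induced subunit, did not share that low level, with 8.20, 10.8 and 5.72 FPKM across AAV-shbrpf1 samples, against 6.87, 8.11 and 5.55 FPKM across AAV-scramble samples. Psmb9 and Tap1 overlap on opposite strands.

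The hairpin against Brpf1 beside the scrambled hairpin was the comparison the study set up, and no member passed it. Brpf1 itself did not pass it either. With limma on log2(FPKM + 1), 0 of 22 members had an adjusted p under 0.05, where 0% of all 12792 genes tested did, and 0 had an unadjusted p under 0.05, against 23 of all genes. When the replicate number was added as a block, the counts were again 0 of 22 at either limit, with 0% of all genes called and 280 at an unadjusted p under 0.05. The median log2 difference of the 22 was -0.01, beside -0.02 for all genes tested, and single values ran from -0.29 for Ifit2 to 0.24 for H2-K1. No member had groups that did not overlap, in either direction, where 1.07% of all genes tested did, 0.578% being higher and 0.492% lower with AAV-shbrpf1.

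The width of the intervals sets what these data can show. B2m had a log2 difference of 0.02 ± 0.49 (SE), whose 95% interval ran from -1.12 to 1.16 without and from -0.19 to 0.23 with the replicate number as a block. For Ifit2 it was -0.29 ± 0.52 with an interval of -1.51 to 0.93, and -0.65 to 0.07 with the block. Jak1 had -0.01 ± 0.32 and intervals of -0.75 to 0.73 and -0.23 to 0.21, and Adar 0.01 ± 0.35 and intervals of -0.80 to 0.83 and -0.19 to 0.22. The first interval of B2m still contains a log2 difference of 1 in either direction, and the blocked one does not. H2-K1 measured 3.35 ± 0.398 FPKM with AAV-shbrpf1 and 2.75 ± 1.06 FPKM with AAV-scramble (SD, n = 3), a difference of 0.24 ± 0.27, and was higher in pairs 2 and 3 and lower in pair 1. Ifit2, Irf2, Irf3, Irf9 and Ifngr2 were lower with AAV-shbrpf1 in 3 of 3 pairs (11.3% of all genes were), and 0 of 22 members were higher in all 3 pairs (7.15% of all genes were). Ifngr2 differed by less than 0.01 FPKM in pair 1.

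**Figure D2:**
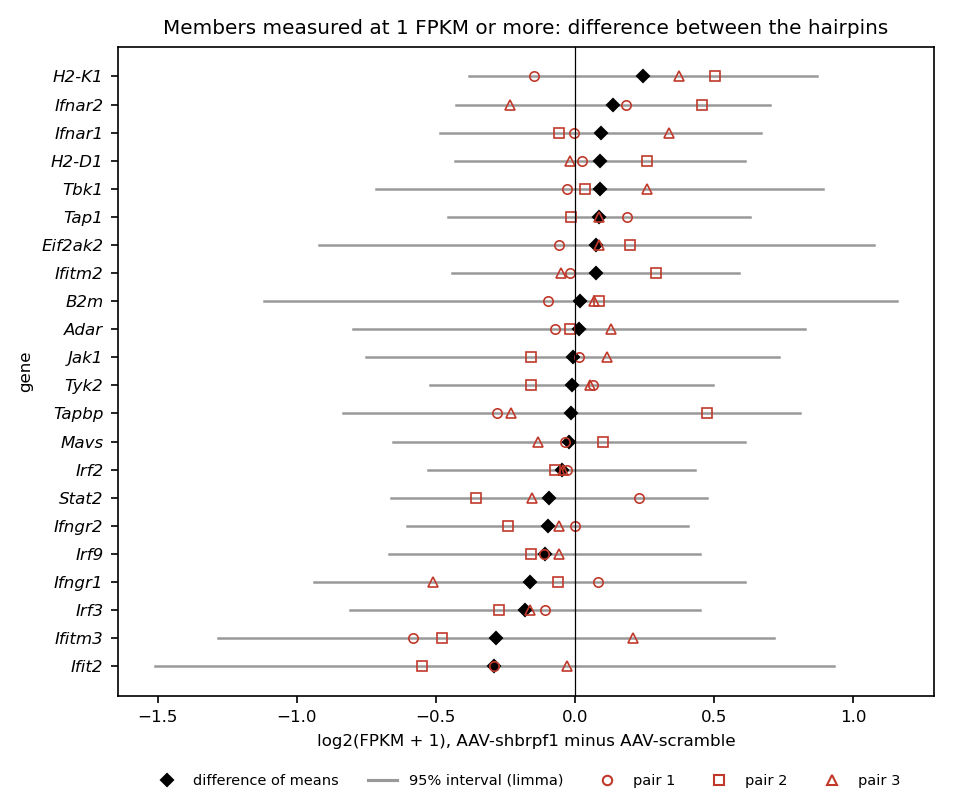
Difference in log2(FPKM + 1), AAV-shbrpf1 minus AAV-scramble, for the 22 genes tested: black diamonds are differences of group means, grey bars 95% limma intervals without a block, and open red symbols the 3 pairs of equal replicate number. Every interval spans 0, and the widest are those of Ifit2 and B2m.

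More members differed between replicate numbers than between hairpins. The libraries pair by number: deviations from the group means correlated at 0.87, 0.83 and 0.57 between libraries of the same number 1, 2 and 3 across genes, which are not independent replicates. What a shared number means is not in the labels. In limma's F test between numbers, with the hairpin in the model, 11 of 22 members (50%) had an adjusted p under 0.05, where 69.4% of all genes tested did. The share of members called was therefore below that of all genes. By role these were 4 of 5 effectors tested (Adar, Ifit2, Eif2ak2 and Ifitm3), both adaptors and kinases (Tbk1 and Mavs), 2 of 7 receptor and JAK-STAT genes (Jak1 and Ifngr1), 2 of 5 MHC class I genes (B2m and Tapbp) and 1 of 3 IRF factors (Irf3). In bulk RNA, fewer cells of a type and less RNA per cell cannot be told apart.

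B2m had the smallest adjusted p of the members, 0.00227. It averaged 10.98 FPKM over the libraries numbered 2, against 31.2 FPKM over those numbered 1 and 23.1 FPKM over those numbered 3, and the 3 numbers did not overlap. Eif2ak2 (adjusted p = 0.00361), Ifit2 (0.00318) and Jak1 (0.00480) were likewise lowest in the libraries numbered 2. Ifit2 averaged 0.358 FPKM there, against 2.67 and 2.16 FPKM in the numbers 1 and 3. Adar ran the other way, at 37.7 FPKM in the numbers 2 against 19.5 and 24.2 FPKM in the numbers 1 and 3 (adjusted p = 0.00299). These 5 genes remained called whichever single library was left out.

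Other called members followed number 1. Ifitm3 averaged 5.95 FPKM in the libraries numbered 1, against 3.02 and 2.08 FPKM in the numbers 2 and 3 (limma adjusted p = 0.0131). Irf3 averaged 3.29 FPKM against 2.06 and 2.01 FPKM (adjusted p = 0.0259), and Mavs 1.97 FPKM against 3.01 and 3.37 FPKM (adjusted p = 0.0262). Ifitm3 and Irf3 thus were highest, and Mavs lowest, in number 1. Beside this, 10 mural and fibroblast markers summed to 41.9 and 64.6 FPKM in the libraries numbered 1 (AAV-shbrpf1 and AAV-scramble) and to between 1.93 and 3.84 FPKM in the other 4, with 9 of 10 at 1 FPKM or more in a library and none at 0 in all 6. The 5 oligodendrocyte lineage markers, all at 1 FPKM or more in a library and none at 0 in all 6, summed to 125 and 109 FPKM in the libraries numbered 1 (AAV-shbrpf1 and AAV-scramble) and to between 205 and 270.3 FPKM in the other 4. The part of either list in these levels was not tested.

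**Figure D3:**
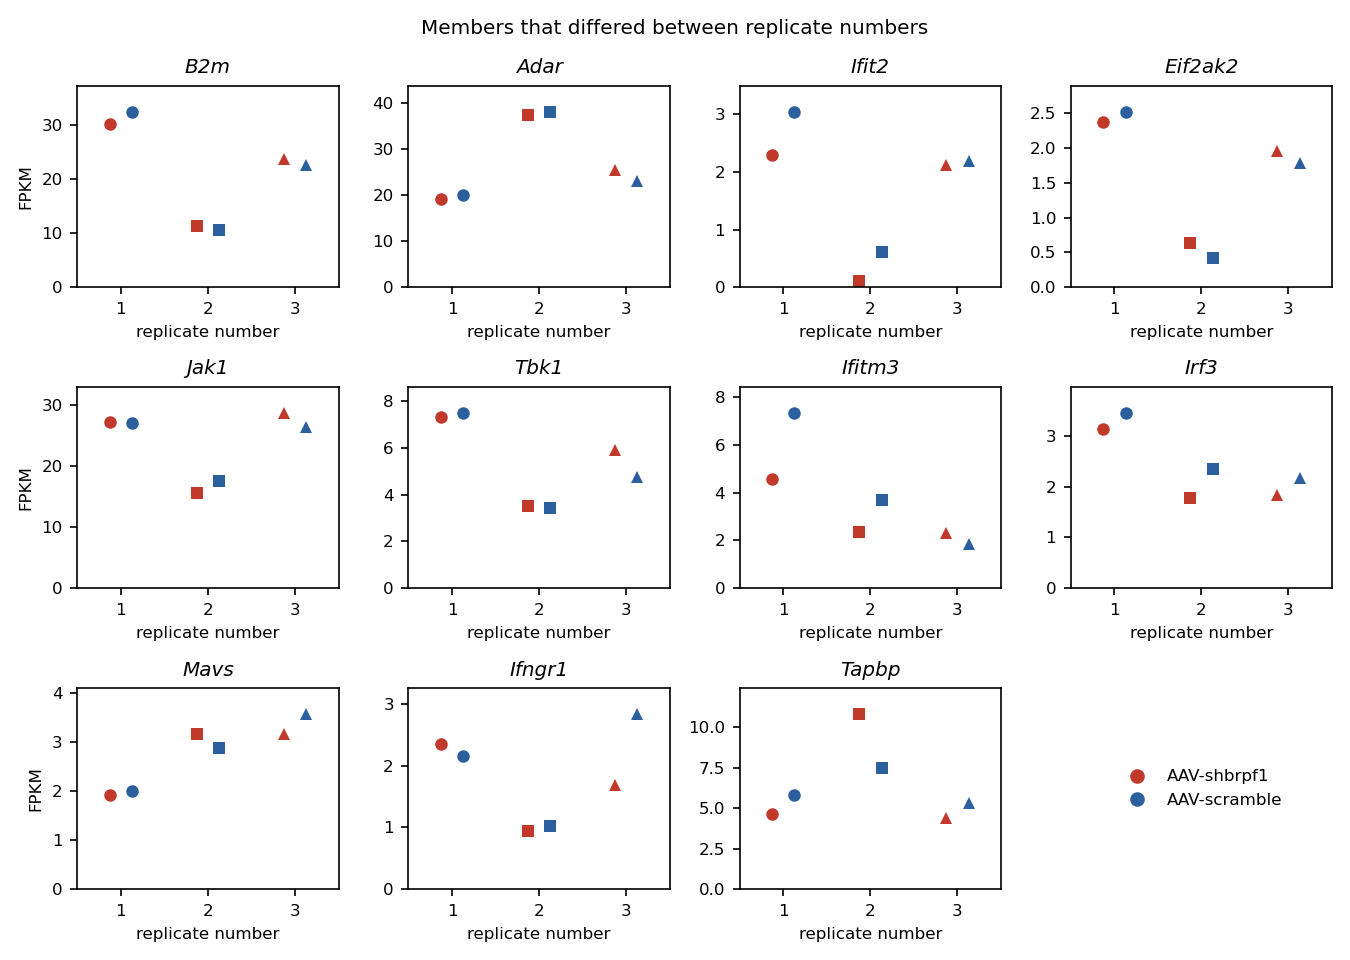
FPKM of the 11 members that passed limma's F test between replicate numbers, 1 panel per gene in order of adjusted p, with AAV-shbrpf1 (red) left of AAV-scramble (blue) at each number; axes start at 0. B2m, Ifit2, Eif2ak2, Jak1, Tbk1 and Ifngr1 are lowest at number 2, Adar and Tapbp highest there.

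The count of members called rested in part on single libraries, as did the share of all genes. It was 7 without AAV-shbrpf1 library 1 (41.7% of all genes tested passed), 5 without AAV-scramble library 1 (37.7%) and 5 without both libraries numbered 2. Without number 2, the genes called between numbers 1 and 3 were B2m (limma adjusted p = 0.0251), Ifitm3 (0.00387), Mavs (0.0205), Irf3 (0.0277) and Tbk1 (0.0451), where 39% of all 13155 genes tested passed.

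The libraries numbered 2 stood apart in other ways as well. Ribosomal RNA features held 11.9% and 7.73% of the fragments implied for them (AAV-shbrpf1 and AAV-scramble), against 2.18% to 3.83% elsewhere, and 18780 and 22621 genes were above 0, against 23853 to 26132. The radial glia and astrocyte markers summed to 342 and 367 FPKM in them and to 913 to 1001 FPKM in the other 4 libraries, with 6 of 6 at 1 FPKM or more in a library. Both libraries numbered 2 lay below the other 4 for 7 of 22 members, where 43.7% of all genes tested did. These were B2m, Eif2ak2, Ifit2, Ifnar1, Ifngr1, Jak1 and Tbk1. Both lay above for 4 members (Adar, Irf2, Tap1 and Tapbp), where 20.3% of all genes did. With each library scaled to the same sum the first count was 9, with Ifngr2 and Tyk2 added, where 50.2% of all genes lay below. The second count was 3, without Irf2, where 11.7% of all genes lay above. Under this scaling the median log2 difference of number 2 from the others was -0.40 over all genes, against -0.26 as deposited. With each library scaled to the same upper quartile that median was -0.15. The counts of 7 and 4 members stayed, while 38% of all genes lay below and 25.6% above.

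The GC content of the transcript moved with this difference. Across 12785 genes with an annotated transcript, GC and the log2 difference of number 2 from the mean of the others had a Spearman correlation of 0.77, and across the 22 members 0.70, as a description of libraries that share their processing. In the GC decile with the lowest content the median difference was -0.98, and in the one with the highest 0.50. B2m, with 41.2% GC, stood at -1.22 where genes of its decile had a median of -0.98. Eif2ak2 and Ifit2, with 43.9% and 42.0% GC, stood at -1.05 and -1.35 where their decile had -0.86. Tbk1 stood at -0.70, close to the -0.69 of its decile. Adar (53.4% GC) at 0.77 and Irf3 (56.7% GC) at -0.24 lay farther from their deciles, which had medians of 0.08 and 0.36. So did Irf2 (46.4% GC) at 0.10 and Tyk2 (57.0% GC) at -0.17, in deciles with medians of -0.52 and 0.36. The part of GC, of the ribosomal share or of the glial markers in the levels of these members was not tested.

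**Figure D4:**
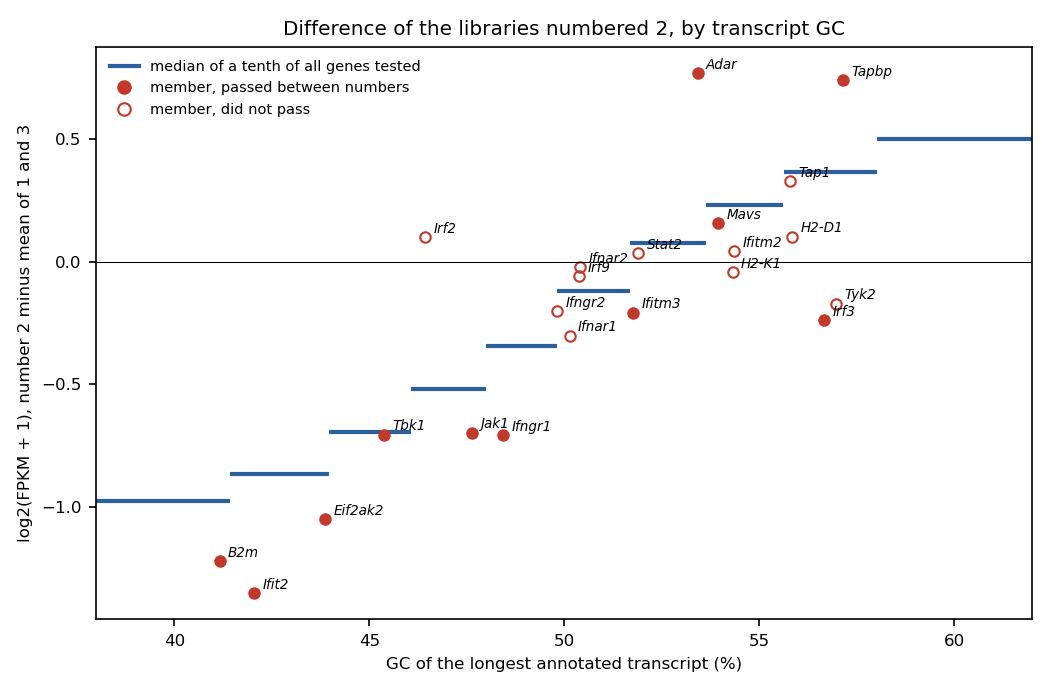
Mean log2(FPKM + 1) of the libraries numbered 2 minus that of the libraries numbered 1 and 3, against the GC content of the longest annotated transcript, for the 22 members (filled where they passed between numbers), with blue bars for the median of each decile of all genes tested; the GC axis shows the range around the members, so the outermost bars run past its edges. The bars climb from -0.98 to 0.50, B2m and Ifit2 lie below the bars of their deciles, and Adar lies above.

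Other genes of the pathway were described in the same way. Of 87 further genes found in the table, 27 reached 1 FPKM in a group, 0 passed between the hairpins with the block or without it, and 19 passed between replicate numbers (69.4% of all genes did). Their median log2 difference between the hairpins was -0.01. All 12 interferon genes in the list, of types I, II and III, were at or under 0.0410 FPKM, and 10 of them were listed at 0 in every library, Ifnb1 among them. Only Ifng and Ifnz were above 0 in any library, at no more than 0.708 and 1.00 estimated fragments, too few to rank them.

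Among signalling genes the most abundant were Ptpn11, a phosphatase that acts on many receptor pathways, Irf2bp1, a corepressor that binds IRF2, and Jak2, the kinase of the interferon gamma receptor. Jak2 measured 10.6, 2.58 and 8.94 FPKM in AAV-shbrpf1 libraries 1, 2 and 3, against 11.9, 3.29 and 6.63 FPKM in AAV-scramble libraries 1, 2 and 3. It was lowest in both libraries numbered 2, as Jak1 was. Ptpn11 measured 25.97, 26.9 and 33.9 FPKM under AAV-shbrpf1, beside 26.4, 27.6 and 33.9 FPKM under AAV-scramble. Irf2bp1 measured 10.9, 30.2 and 16.95 FPKM across AAV-shbrpf1 samples, against 9.92, 28.3 and 20.3 FPKM across AAV-scramble samples, highest in both libraries numbered 2. Of adaptors, Chuk, a kinase of the NF-κB pathway, measured 8.26, 0.603 and 5.30 FPKM in AAV-shbrpf1 libraries 1, 2 and 3, against 10.2, 1.95 and 3.81 FPKM in AAV-scramble libraries 1, 2 and 3, and Traf3, which links MAVS to TBK1, measured 3.83, 6.21 and 5.72 FPKM under AAV-shbrpf1, beside 4.84, 3.20 and 4.78 FPKM under AAV-scramble. Irak1, a kinase downstream of Toll-like receptors, measured 5.77, 3.41 and 4.97 FPKM across AAV-shbrpf1 samples, against 5.84, 3.96 and 4.08 FPKM across AAV-scramble samples. For Traf3 no number stood apart, and for Chuk and Irak1 the libraries numbered 2 were the lowest.

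Among further effectors Cmpk2, a mitochondrial nucleotide kinase whose gene neighbours Rsad2, measured 3.79, 1.81 and 4.26 FPKM in AAV-shbrpf1 libraries 1, 2 and 3, against 3.69, 2.14 and 4.86 FPKM in AAV-scramble libraries 1, 2 and 3. Ifi27 measured 3.42, 2.98 and 4.09 FPKM under AAV-shbrpf1, beside 3.83, 2.92 and 5.07 FPKM under AAV-scramble, and Ube2l6, the conjugating enzyme for ISG15, 2.48, 2.70 and 2.15 FPKM across AAV-shbrpf1 samples, against 1.65, 2.54 and 1.52 FPKM across AAV-scramble samples. These 3 thus stood above Isg15, Ifit1 and Rsad2 in every library, and none passed between the hairpins. In the class I path the chaperones Calr and Canx, which serve all glycoproteins of the endoplasmic reticulum, were abundant, with 147, 224 and 183 FPKM in AAV-shbrpf1 libraries 1, 2 and 3, against 129, 243 and 197 FPKM in AAV-scramble libraries 1, 2 and 3 for Calr. Canx measured 104, 48.96 and 85.7 FPKM under AAV-shbrpf1, beside 105, 59.9 and 77.2 FPKM under AAV-scramble. In the libraries numbered 2, Calr was highest and Canx lowest.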

How the data were processed

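RNA-seq of 6 libraries was analysed. The authors deposited FPKM values per gene and library, normalized to transcript length and depth before deposit; the unit is read from the values, as the header names none. Per the submitters' processing notes, the authors used FastQC, StringTie, DESeq2 and the build mm9, whose roles are not stated. No source used here gives an aligner, an annotation, a filter or a strand setting. Of 55154 gene identifiers found in GENCODE M21 (GRCm38), 54899 share both ends with the deposited rows, and coordinates are therefore given on GRCm38. Columns were matched to samples by group and number.

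The 12792 genes whose mean reached 1 FPKM in either group were tested two-sided as log2(FPKM + 1), using limma 3.58.1 with a trend (R 4.3.3) and no covariate, and calls were made at a Benjamini-Hochberg adjusted p under 0.05 over all of them. Such differences understate changes of low genes. For replicate numbers, limma's F test was run beside a hairpin term. Whether numbers pair the samples was decided from deviations from the group means, which correlated at 0.57 to 0.87 within numbers and at most at 0.00199 between them. Deviations within a group cancel for each gene, so positive values within numbers push those between numbers down. The low values between numbers are therefore no separate evidence of pairing.

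Depth was estimated from 11673 single-exon genes over 400 nt, where the commonest step of FPKM times length was read as 1 fragment. Of low values 40.4% to 44.3% lay on whole steps (tolerance 0.03), so reads were not recovered and no count test was used. Fragments per gene are estimates at the longest transcript. An exact 0 may be a failed estimate.

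The members, the lists and the tests were chosen with earlier results of these data known. Every member is named; those tested are given in all libraries, the others by values or their highest library. From the list of other pathway genes the 3 most abundant of each role are named. Pseudocounts, filters, scalings, a replicate block and leaving out libraries were the alternatives tried. Promoter windows are RefSeq's on GRCm38.p6; for Dhx58, Mx1, Mx2, Oas2, Tap2, Tlr7, Tmem173 and Usp18 none is used here. Protein sequences were not used here.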

Additional observations from a re-analysis of the deposited data

How the results depend on the processing

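Between the hairpins, 0 members and 0 other pathway genes passed under each alternative run, including the replicate block and the block without each number. Of all genes tested, 8 of 13155 passed with the block without number 2 and 1 of 12831 with the block without number 3. No gene passed in the other runs. The log2 difference of Brpf1 stayed between -0.36 and -0.06, never past the threshold. The replicate block changed no call of a member or other pathway gene. Of the 22 members, 17 changed the sign of their difference in at least 1 alternative, so no direction is read from them. The number of members at 1 FPKM or more, 22 as reported, ran from 17 (a mean of 2 FPKM, or 1 FPKM in every library) to 28 (a mean of 0.5 FPKM), and was 22 or 23 without each library. The count of members called between numbers was 11 of 22 as reported, where 69.4% of all genes tested were called. Without a filter, where more genes were tested, it was 6 of 45, beside 23.2% of all 31057 genes. Without both libraries numbered 2, an alternative chosen after seeing the data, it was 5 of 23, beside 39% of all genes. It ran from 5 to 11 without each single library, where the share of all genes ran from 37.7% to 68.0%. For other pathway genes the count was 19 of 27 as reported, 10 of 29 without number 2, and 9 to 19 without each single library, beside the same shares of all genes. Fewer libraries were fitted in these cases. Only B2m passed between numbers in each alternative run. The summed IRF factors of number 2 stood at 0.92 of the mean of the others as deposited, and at 1.01 with each library scaled to the same upper quartile, so that order depends on the scaling. For members with a few estimated fragments, counting error alone is large, and the change that could be detected there was not measured.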
